A study of Mus musculus with 24 samples.

Results

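The UDP-glucuronosyltransferases (Ugt genes), sulfotransferases (Sult), carboxylesterases (Ces), flavin-containing monooxygenases (Fmo) and aldehyde dehydrogenases (Aldh) were followed through the day in liver. Members were all array probes whose annotated gene symbol begins with Ugt, Sult, Ces, Fmo or Aldh followed by a digit, which gave 93 of 25697 probes and 66 of 16593 named genes. Of these genes, 16 were UGT, 12 SULT, 13 CES, 5 FMO and 20 ALDH genes. Double-knockout mice lacked both Rev-erb nuclear receptors, alpha and beta, in the liver (DKO), under the strain label Reverbalpha/beta Alb Cre+. The wild-type (WT) mice carried the strain label Reverbalpha/beta Alb Cre-, so both groups bear the same Reverb label and differ in the Cre. Cre was under the control of albumin, which is active mainly in the hepatocyte lineage. All mice were males of 20 weeks on a c57Bl6/J background, untreated as far as the labels say, and liver RNA was taken at ZT0, ZT4, ZT8, ZT12, ZT16 and ZT20 (hours after the lights came on).

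These enzymes handle drugs, hormones, lipids and reactive intermediates in hepatocytes. UGT and SULT enzymes are conjugating enzymes, which add glucuronic acid or sulfate to make a substrate water-soluble. CES enzymes split ester and amide bonds of drugs and of triacylglycerol, FMO enzymes oxidise nitrogen and sulfur groups, and ALDH enzymes turn aldehydes into acids. Rev-erb receptors are clock repressors that bind DNA at a half-site with the letters AGGTCA. PAR bZIP factors, which are outputs of the clock, are known in mouse to drive many detoxification genes through a site called the D-box. That site was searched here with the letters TTANGTAA, where N is any base.

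The 24 Illumina bead arrays gave 2 arrays for each of 12 groups, which the labels call technical replicates, and these were averaged to 6 values per genotype, 1 per time. The labels do not state how many animals went into an RNA sample, and a p-value here measures the spread of these 12 samples about the fitted daily curves, with different times in place of replicates at 1 time. Per array the median signal was 245.4 to 340.6 units, 34.8 to 40.2% of probes were detected, and pairs of arrays within a group had correlations of 0.988 to 0.992. The arrays sat on 3 slides, with DKO ZT0, ZT4, ZT8 and ZT12 on slide 1, both later DKO times and the WT samples of ZT0 and ZT4 on slide 2, and the other 4 WT times on slide 3. At no time did the genotypes share a slide, and the effects of slide and genotype cannot be told apart there. Transcript signals of the deleted genes remained, at 8.81 to 11.03 in DKO livers against 6.42 to 10.51 in WT livers for Nr1d1 (normalized log2 intensity, as all levels below), and at 9.58 to 10.14 in DKO livers against 7.70 to 10.92 in WT livers for Nr1d2. The labels do not place those probes relative to the deleted part, so they check nothing. The liver label was borne out by hepatocyte markers, of which 8 of 10 were measured and Apoa1 averaged 16.11 in DKO livers and 16.12 in WT livers, but the Alb probe was detected on 1 of 12 DKO arrays and 8 of 12 WT arrays.

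Of the 66 genes, 40 were measured well enough to test, 23 were detected on no array and 3 on too few. The tested set held 10 UGT, 5 SULT, 10 CES, 3 FMO and 12 ALDH genes. Averaged over the day, 10 members were lower in DKO livers and 1 was higher (limma adjusted p under 0.05). The lower ones were Ugt1a2, Ugt1a10, Ugt2b34, Sult1a1, Ces1d, Ces1e, Ces1f, Ces1g, Aldh1a1 and Aldh3a2, and the higher one was Sult1c2. That is 25% of members called lower, beside 5.02% of the 7272 genes tested, and 2.5% called higher, beside 4.33%. The median DKO minus WT difference of the 40 members was -0.19 (log2), against 0.018 for all genes. Above 0 were 11 of 40 members, beside 3853 of 7272 genes. Below WT at 6 of 6 times were 15 members, or 37.5%, beside 9.76% of all genes. In bulk liver, fewer cells of a type and less RNA per cell cannot be told apart.

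**Figure D1:**
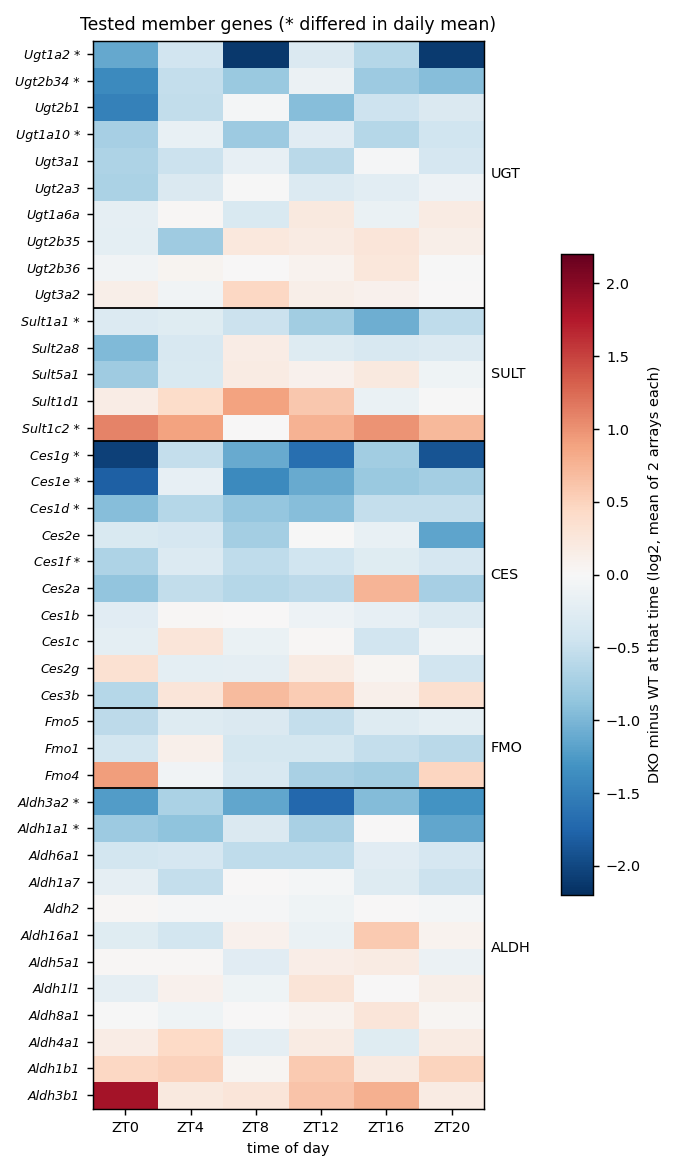
Difference between DKO and WT (log2, mean of 2 arrays each) at each of the 6 times for the 40 tested members, in family blocks with the most negative daily mean on top of each block and a colour scale of -2.2 to 2.2. Stars mark the 11 genes that differed in daily mean. Blue rows (lower in DKO) fill the top of the UGT, CES and ALDH blocks. Sult1c2, Aldh3b1 and Aldh1b1 are above 0 at 6 of 6 times, though by only 0.015 for Sult1c2 and 0.038 for Aldh1b1 at ZT8.

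Many calls were lost when samples were left out. Without one time of day in both genotypes, 4, 9, 2, 4, 2 and 2 of the 11 stayed called for ZT0, ZT4, ZT8, ZT12, ZT16 and ZT20 left out, always with the same sign. Aldh3a2 was called in all of these 6 fits. It was joined by Ces1d, Ces1e and Sult1a1 without ZT0, by Ces1d without ZT8, by Ces1d, Ces1g and Ugt2b34 without ZT12, by Ces1g without ZT16 and by Sult1a1 without ZT20, while only Aldh1a1 and Sult1c2 were lost without ZT4. Leaving out 1 RNA sample kept 5 of 11 for WT ZT0, 6 for DKO ZT20, WT ZT8 and WT ZT16, 7 for WT ZT20 and 8 to 10 for the others. Without the first array of every group 6 were kept, losing Aldh1a1, Ces1f, Ces1g, Ugt1a10 and Ugt1a2. There were 44 leave-out fits in all, including 1 for each of the 24 arrays, which are technical replicates. Over all genes they called 141 to 719, against 680 in the main fit. A fit without a time or a sample also holds fewer values, and how much of the loss came from lost precision was not tested.

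Slide moved these results more than any single sample. With slide as a fixed block, 0 of 40 members and 0 of 7272 genes were called, with 4 members and 793 genes at an unadjusted p under 0.05, and the members' median difference was 0.12. Within slide 2, where DKO ZT16 and ZT20 meet WT ZT0 and ZT4, that median was -0.008. With slide as a random block the call of Aldh3a2 was the one that held (limma adjusted p = 0.0387). In the fixed-block fit 7 of the 11 called members had the same sign as before, and within slide 2 all 11 did, although the times then differ as well. The fixed-block SE was wider for all 11, at 0.22 against 0.17 for Aldh3a2, 0.45 against 0.17 for Aldh1a1 and 0.48 against 0.28 for Ces1g. The difference itself moved for some genes, from -1.18 to 0.10 for Aldh3a2. It hardly moved for Sult1a1, from -0.57 to -0.56, where the SE went from 0.10 to 0.30. How far slide and lost precision each account for the lack of calls was not tested.

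**Figure D2:**
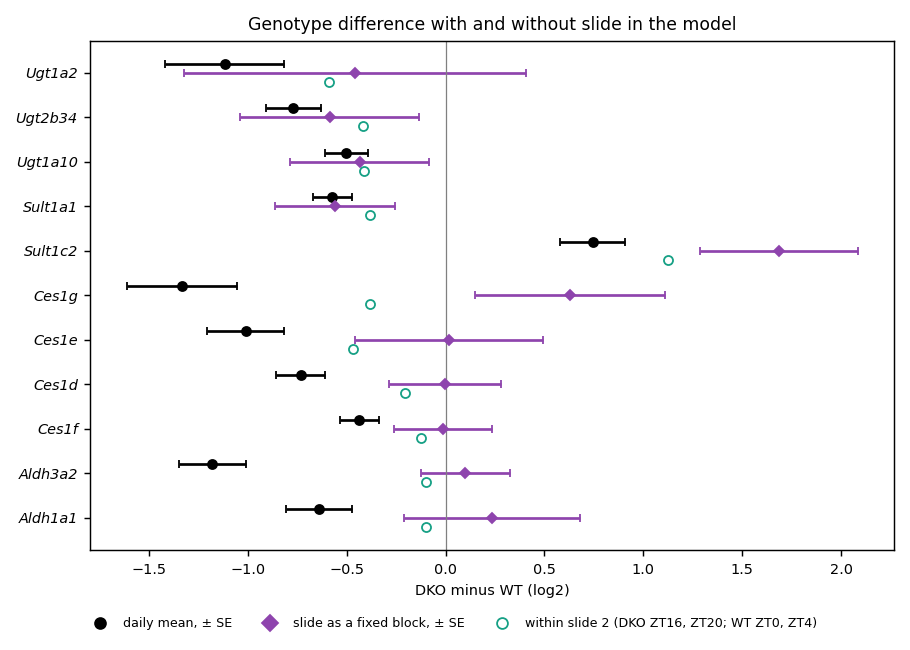
DKO minus WT difference (log2) of the 11 called members as the daily mean ± SE (black), with slide as a fixed block ± SE (purple) and within slide 2 (open green, no test). Sult1c2, Sult1a1 and the 3 UGT genes lie on the same side of 0 in all fits, whereas the fixed-block values of the Ces1 and Aldh genes lie at or above 0 except for Ces1d and Ces1f at -0.0018 and -0.013.

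Among the glucuronosyltransferases, 3 of 10 tested genes fell, 0 rose, and the median difference was -0.33. Ugt2b34, a member of the UGT2B subfamily that conjugates steroids and other lipophilic substrates, was at 10.15, 10.28, 10.34, 10.74, 11.02 and 10.50 in DKO livers and at 11.56, 10.79, 11.16, 10.86, 11.82 and 11.45 in WT livers (ZT0 to ZT20). DKO was below WT at every time, with the widest gap at ZT0 and the narrowest at ZT12, and the ranges of the genotypes overlapped. The daily mean differed by -0.77 ± 0.14 (SE, n = 6 times each, log2), 1.70-fold lower in DKO, with a limma adjusted p of 0.0129. With slide as a fixed block it was -0.59, and within slide 2 it was -0.42.

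Ugt1a10 and Ugt1a2 are read from alternative first exons of the shared Ugt1a locus and have their remaining exons in common, so that separate values for the isoforms are uncertain. Ugt1a10 was at 14.13, 14.36, 14.29, 14.53, 14.37 and 14.20 in DKO livers and at 14.87, 14.53, 15.09, 14.78, 14.99 and 14.64 in WT livers. Its daily mean fell by 0.50 ± 0.11 (log2, SE, over 6 times in each genotype), with a limma adjusted p of 0.0232, and the highest DKO value lay just above the lowest WT value. Its fixed-block value was -0.43 and its value within slide 2 was -0.41. Ugt1a2 was at 7.97, 8.08, 7.92, 8.61, 9.08 and 7.33 in DKO livers and at 9.10, 8.49, 10.04, 8.93, 9.70 and 9.43 in WT livers. The difference of -1.12 ± 0.30 (SE, n = 6 times each, log2) was just past the threshold (limma adjusted p = 0.0488), with overlapping ranges, 11 of 12 DKO arrays above detection and a call kept in 16 of 44 fits that left out a time, a sample or an array. Among the fits without a time, it was called only for ZT4 left out. Slide as a fixed block gave -0.46 and slide 2 gave -0.59.

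Ugt1a6a, another gene of this locus, conjugates planar phenols and had 3 kept probes that disagreed. The brightest, used for the gene, differed by -0.04 ± 0.12 (log2, SE, limma adjusted p = 0.844), and another by -0.03 ± 0.16. The remaining probe was at 9.93, 9.86, 10.03, 10.21, 10.34 and 10.05 in DKO livers and at 11.37, 10.90, 11.21, 10.98, 11.30 and 11.19 in WT livers. Every DKO value lay below every WT value. It differed by -1.09 ± 0.10 (limma adjusted p = 0.000713 in the fit of all kept probes), by -1.004 with slide as a fixed block, by -0.94 within slide 2, and with slide as a random block by -1.08 with an adjusted p of 0.00522. These slide fits of a single probe were chosen after its values were seen, and the transcripts that this probe reads are not named in the labels or files. Of the other UGT genes, Ugt2b1 (-0.63), Ugt3a1 (-0.39) and Ugt2a3 (-0.28) were lower at 6 of 6 times without passing, and Ugt2b35, Ugt2b36 and Ugt3a2 differed by -0.03, 0.05 and 0.13.

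**Figure D3:**
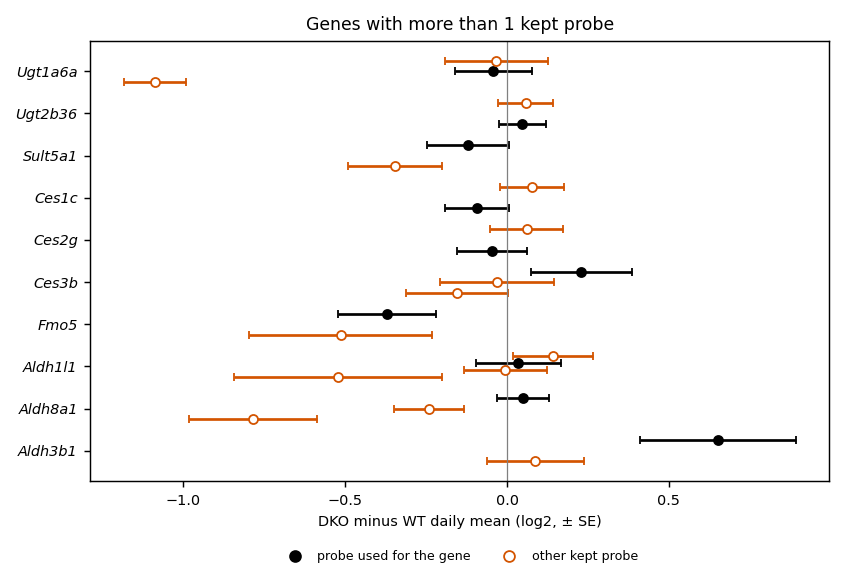
DKO minus WT daily mean (log2, ± SE) of each kept probe of the 10 members that had more than 1, with the probe used for the gene in black and other kept probes in orange. For Ugt1a6a 1 probe sits at -1.09 and the other 2 near 0, and for Aldh8a1 the probes run between -0.78 and 0.05.

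The sulfotransferases moved in both directions, with 1 of 5 tested genes up and 1 down and a median of -0.12. Sult1a1, which sulfates phenols and paracetamol, was at 14.32, 13.93, 13.95, 13.85, 13.72 and 14.35 in DKO livers and at 14.62, 14.21, 14.42, 14.61, 14.79 and 14.91 in WT livers. DKO lay below WT at each time, most of all at ZT16 when the DKO profile had its lowest value, and the ranges overlapped. The daily mean differed by -0.57 ± 0.10 (SE, n = 6 times each, log2), 1.49-fold lower in DKO (limma adjusted p = 0.0116). With slide fixed it was -0.56, and within slide 2 -0.38.

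Sult1c2, of the SULT1C subfamily of cytosolic sulfotransferases, was the member that rose. It was at 9.29, 9.70, 9.27, 9.31, 9.75 and 9.52 in DKO livers and at 8.20, 8.82, 9.26, 8.54, 8.76 and 8.81 in WT livers. The lowest DKO value, at ZT8, was just above the highest WT value, also at ZT8, so the ranges did not overlap. It rose by 0.74 ± 0.17 (SE, n = 6 times each, log2), 1.67-fold (limma adjusted p = 0.0261), and by 1.68 with slide fixed and 1.12 within slide 2. The call was kept in 32 of 44 fits that left something out, but in none of the 6 without a time. It was also lost with median scaling (0.51, adjusted p = 0.0652), which moved the median of all genes to -0.20. Sult2a8, a liver sulfotransferase of the SULT2A subfamily that acts on bile acids and steroids, differed by -0.35, Sult5a1 by -0.12 and Sult1d1, which sulfates catecholamines and other phenols, by 0.31.

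Of the carboxylesterases 4 of 10 tested genes fell, and all 4 belong to the Ces1 group, of which 6 were tested. Ces1a to Ces1g lie in alphabetical order on chromosome 8 in the RefSeq gene table, with no other member between them. Ces1d, Ces1e, Ces1f and Ces1g fell, while Ces1b (-0.13) and Ces1c (-0.09) did not pass and Ces1a was not detected well enough to test. The genes are close in sequence, so signal shared between them cannot be told apart here. The 4 tested Ces2 and Ces3 genes did not pass, at -0.47 for Ces2e, -0.43 for Ces2a, -0.05 for Ces2g and 0.23 for Ces3b. Other kept probes of Ces3b differed by -0.15 and -0.03, and Ces2a was detected on 2 DKO and 3 WT arrays.

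Ces1g, an esterase that acts on lipids as well as drugs, had the largest difference of all members. It was at 7.55, 8.23, 8.59, 7.73, 9.27 and 8.32 in DKO livers and at 9.60, 8.75, 9.69, 9.38, 10.02 and 10.21 in WT livers. The DKO values at ZT0, ZT12 and ZT20 lay furthest below WT, and DKO ZT16 was above WT ZT4, so the ranges overlapped. The difference was -1.33 ± 0.28 (SE, n = 6 times each, log2), 2.52-fold lower in DKO (limma adjusted p = 0.0208), but 0.63 with slide fixed and -0.38 within slide 2. The 2 arrays of a sample lay up to 1.01 apart for this gene, at DKO ZT4 (7.72 and 8.73). Ces1e, also known as egasyn, the esterase that holds beta-glucuronidase in the endoplasmic reticulum, was at 10.63, 11.41, 10.70, 10.83, 11.44 and 11.65 in DKO livers and at 12.43, 11.60, 12.10, 11.93, 12.25 and 12.41 in WT livers. It was 2.01-fold lower in DKO, a difference of -1.01 ± 0.19 (SE, n = 6 times each, log2, limma adjusted p = 0.0158), with the nearest approach of the genotypes at ZT4. Its fixed-block value was 0.018 and its slide 2 value -0.47.

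Ces1d, a triacylglycerol hydrolase of the endoplasmic reticulum, was at 15.04, 14.91, 15.14, 14.87, 15.49 and 15.59 in DKO livers and at 15.97, 15.52, 15.98, 15.82, 16.01 and 16.12 in WT livers. DKO was lower at 6 of 6 times, and DKO ZT20 alone was above the lowest WT value. The WT values reached 16.12, near the top of the scale (16.15), so the size of the gap is uncertain. The difference was -0.73 ± 0.12 (SE, n = 6 times each, log2, limma adjusted p = 0.0105), -0.0018 with slide fixed and -0.21 within slide 2. Ces1f, a related lipid hydrolase, was at 13.73, 13.94, 13.82, 13.83, 14.30 and 14.10 in DKO livers and at 14.41, 14.24, 14.38, 14.26, 14.57 and 14.48 in WT livers. Its drop, below WT at 6 of 6 times, was the smallest of the called members, at -0.44 ± 0.10 (SE, n = 6 times each, log2, limma adjusted p = 0.0266). With slide it became -0.013 as a fixed block and -0.13 within slide 2.

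Promoter windows of 300 bases, 250 before the annotated start and 50 after it, were at hand for 55 of 66 members (RefSeq, GRCm38.p6). They are shown for Ces1g and Ces1e, the CES genes with the largest falls, and for their neighbour Ces1c, which did not pass, because each holds the D-box letters TTANGTAA, in capitals, read on either strand. All 3 windows lie on the minus strand, at chr8:93337160-93337459, chr8:93229570-93229869 and chr8:93131234-93131533, and are printed 5′ to 3′ in the direction of the gene.
Ces1g: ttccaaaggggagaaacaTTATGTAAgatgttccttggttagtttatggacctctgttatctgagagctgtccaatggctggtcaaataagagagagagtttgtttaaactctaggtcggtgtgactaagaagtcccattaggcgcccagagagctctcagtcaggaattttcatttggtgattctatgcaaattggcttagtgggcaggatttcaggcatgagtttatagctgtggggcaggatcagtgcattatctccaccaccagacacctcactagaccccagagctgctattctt
Ces1e: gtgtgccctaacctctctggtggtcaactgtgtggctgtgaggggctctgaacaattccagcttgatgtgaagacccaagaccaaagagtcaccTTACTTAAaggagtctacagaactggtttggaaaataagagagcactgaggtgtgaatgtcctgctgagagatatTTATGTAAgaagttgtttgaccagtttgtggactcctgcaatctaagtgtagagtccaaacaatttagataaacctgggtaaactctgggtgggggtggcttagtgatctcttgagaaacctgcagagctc
Ces1c: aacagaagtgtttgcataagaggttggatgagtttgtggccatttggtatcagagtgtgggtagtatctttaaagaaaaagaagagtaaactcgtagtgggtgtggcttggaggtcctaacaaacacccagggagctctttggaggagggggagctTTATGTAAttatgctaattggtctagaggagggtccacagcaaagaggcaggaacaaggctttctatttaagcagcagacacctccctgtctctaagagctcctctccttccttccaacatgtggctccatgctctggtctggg
The match begins 232 bases before the start in Ces1g, 156 and 81 bases before it in Ces1e, and 94 bases before it in Ces1c.

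Over all members with a window, 7 of 55 (12.7%) held TTANGTAA, beside 2.72% of 27025 genes. The 7 were Ces1a, Ces1b, Ces1c, Ces1e, Ces1g, Sult1a1 and Ugt2b1, so that 5 of them are neighbours in the Ces1 cluster and are not independent. Of the 9 called members with a window, 3 held it, and the called Ces1d and Ces1f had no window to search. The Rev-erb letters AGGTCA were in 15 of 55 member windows (27.3%), beside 18.1% of all genes, and in 0 of the 9 called ones. The longer form TAGGTCA, which contains them, was in 3 of 55 (5.45%, against 2.97%), namely Ces4a, Sult1b1 and Sult2a8. Such letters are a description of the window and not a bound site.

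The flavin-containing monooxygenases gave no call. Of 3 tested genes, Fmo5, a monooxygenase that converts ketones to esters, had the largest difference and was at 12.92, 12.57, 12.59, 12.37, 13.67 and 13.69 in DKO livers and at 13.49, 12.86, 12.91, 12.90, 13.96 and 13.91 in WT livers. It was lower in DKO at 6 of 6 times, and in both genotypes ZT16 and ZT20 stood above ZT4 to ZT12. The daily mean differed by -0.37 ± 0.15 (SE, n = 6 times each, log2) without passing (limma adjusted p = 0.144), and turned to 0.43 with slide fixed and 0.50 within slide 2. Fmo1, which oxidises amines and sulfides, differed by -0.36 and Fmo4 by -0.09, also without passing. A second Fmo5 probe differed by -0.51 ± 0.28 and also had its 2 highest values at ZT16 and ZT20 in each genotype, at 10.83 and 10.92 in DKO livers and 11.15 and 10.80 in WT livers.

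Of the aldehyde dehydrogenases 2 of 12 tested genes fell and 0 rose, with a median of -0.006. Aldh3a2, the fatty aldehyde dehydrogenase of the endoplasmic reticulum, was at 12.99, 13.24, 13.40, 13.08, 14.12 and 13.84 in DKO livers and at 14.22, 13.94, 14.55, 14.81, 15.07 and 15.16 in WT livers. In WT the values were higher at each time between ZT4 and ZT20, but the step between ZT4 and ZT8 fell at the change of slide and the WT rhythm did not pass (limma adjusted p = 0.290). Every DKO time was below its WT counterpart, with the widest gap at ZT12. It was 2.26-fold lower in DKO, by -1.18 ± 0.17 (SE, n = 6 times each, log2) with a limma adjusted p of 0.00553, and was called in 44 of 44 fits that left out a time, a sample or an array. Slide as a fixed block turned it to 0.10, and within slide 2 it was -0.10, where DKO ZT16 and ZT20 are set against the 2 lowest WT values.

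Aldh3a2 was the called member with an E-box, the letters CACGTG bound by the clock activators, in its window, 30 bases before the start (capitals, minus strand of chr11:61267137-61267436, 5′ to 3′).
Aldh3a2: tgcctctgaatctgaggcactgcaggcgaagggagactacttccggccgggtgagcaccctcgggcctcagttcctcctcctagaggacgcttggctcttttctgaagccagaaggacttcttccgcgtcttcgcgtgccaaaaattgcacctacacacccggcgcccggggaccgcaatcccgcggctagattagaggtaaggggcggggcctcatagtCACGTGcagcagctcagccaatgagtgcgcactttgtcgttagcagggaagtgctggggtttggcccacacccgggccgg
The E-box letters were in 2 of 55 member windows (3.64%), the other being Aldh18a1, beside 8.09% of all genes.

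Aldh1a1, which makes retinoic acid from retinal, was at 13.36, 12.97, 13.63, 13.15, 14.23 and 13.58 in DKO livers and at 14.16, 13.85, 13.95, 13.86, 14.23 and 14.71 in WT livers. It was lower in DKO at all times but ZT16, where the genotypes were level. The difference was -0.64 ± 0.17 (SE, n = 6 times each, log2, limma adjusted p = 0.0453), 0.23 with slide fixed and -0.10 within slide 2. The call was kept in 21 of 44 fits that left something out, but in none of the 6 without a time. Aldh6a1, of valine breakdown, was lower at 6 of 6 times, at -0.42, and did not pass (limma adjusted p = 0.0549). Aldh2, the mitochondrial enzyme that clears acetaldehyde, differed by -0.03, but at 16.03 to 16.11 in DKO livers and 16.06 to 16.13 in WT livers it too stood near the top of the scale.

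Aldh3b1, which acts on lipid aldehydes, was at 9.91, 8.40, 8.57, 8.96, 8.77 and 8.41 in DKO livers and at 8.07, 8.18, 8.29, 8.33, 7.99 and 8.24 in WT livers. Every DKO value exceeded every WT value, with DKO ZT0 far above the rest, yet the difference of 0.65 ± 0.24 (SE, n = 6 times each, log2) did not pass (limma adjusted p = 0.118), and it was -0.39 with slide fixed and 0.46 within slide 2. Its second kept probe differed by 0.09 ± 0.15. Aldh8a1 also depended on the probe, at 0.05 ± 0.08 for the one used, -0.24 ± 0.11 for a second, and -0.78 ± 0.20 for the remaining one (limma adjusted p = 0.0370 among all kept probes), which was detected on 3 of 12 DKO arrays and 11 of 12 WT arrays. That probe was at 0.44 with slide fixed and 0.019 within slide 2, and with slide as a random block it did not pass (-0.69, adjusted p = 0.182), in fits chosen after its values were seen. The folate enzyme Aldh1l1 differed by 0.03, Aldh1b1 by 0.38, Aldh4a1 by 0.08, Aldh1a7 by -0.25, and Aldh5a1 and Aldh16a1 by 0.0003 and -0.01.

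**Figure D4:**
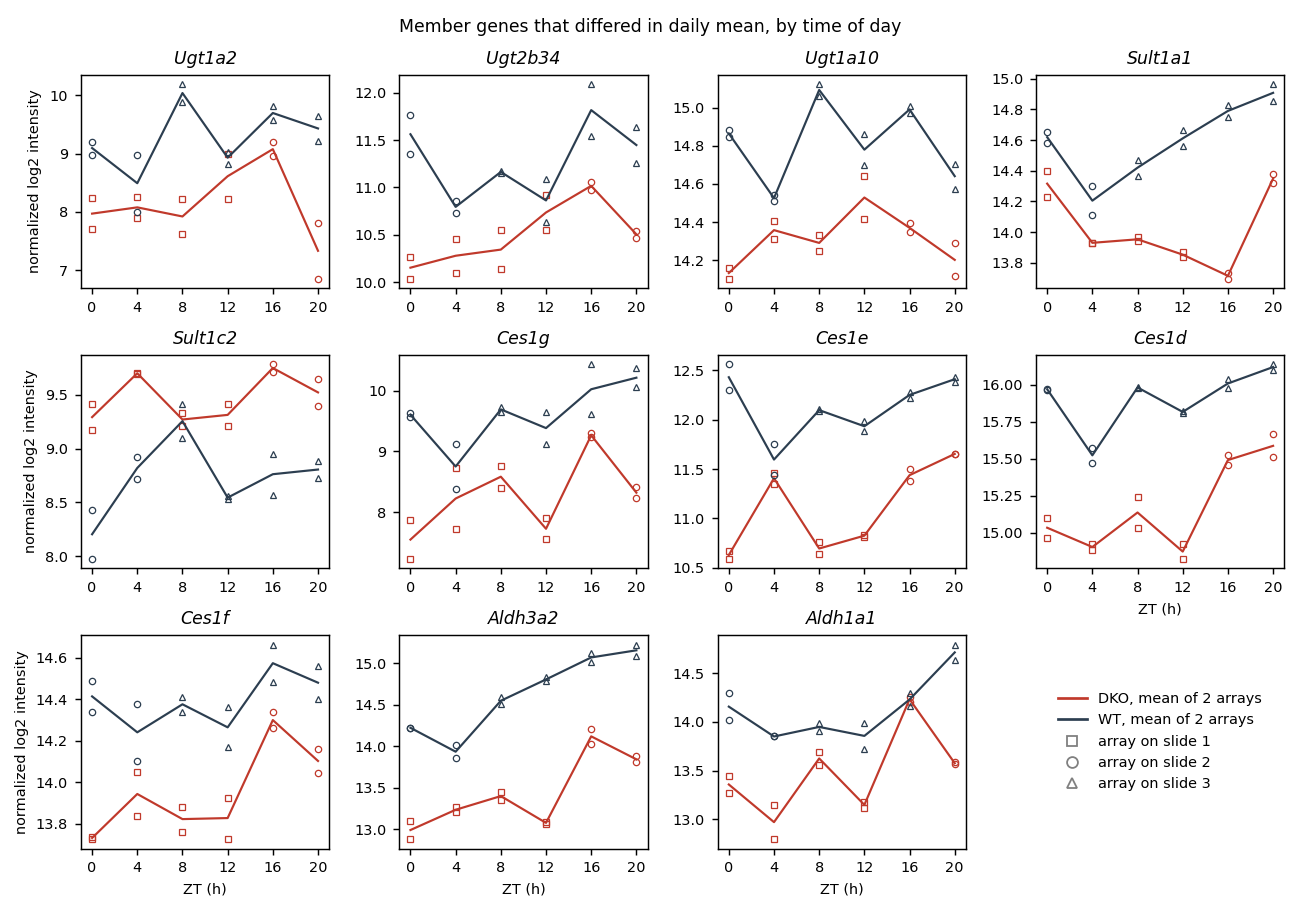
Normalized log2 intensity by time of day (ZT, h) for the 11 members that differed in daily mean, with DKO in red and WT in dark blue, lines through the means of 2 arrays, single arrays as open symbols and the symbol showing the slide. DKO lines run below WT lines at all times in 9 panels and at all but ZT16 for Aldh1a1, and above them for Sult1c2.

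A 24 h rhythm passed the test in 0 of 40 members in DKO livers and in 0 of 40 in WT livers, beside 0.055% and 0.179% of all genes (limma adjusted p under 0.05). A difference in rhythm passed in 0 members and 0% of all genes. At an unadjusted p under 0.05 there were 4 members in DKO livers (10%, beside 7.38% of all genes), 7 in WT livers (17.5%, beside 13.8%) and 1 for the difference (2.5%, beside 6.22%). The member shares are near the background or below it.

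Fmo5 had the lowest p of the members in both genotypes, with a fitted amplitude of 0.66 in DKO livers and 0.63 in WT livers (log2, limma adjusted p = 0.465 and 0.196) and a peak at ZT 19.1 in both. Among the WT samples of slide 3, which share 1 slide, the mean of ZT16 and ZT20 exceeded that of ZT8 and ZT12 by 1.03 for Fmo5, 0.89 for Sult1d1, 0.75 for Aldh1b1 and 0.66 for Fmo1, the 4 largest such values of the 40 members. In DKO livers the step in Fmo5 between ZT12 and ZT16 fell at the change of slide, and with slide as a fixed block its amplitude was 0.20 in DKO livers and 0.61 in WT livers. Sult1d1 had an amplitude of 0.08 in DKO livers and 0.46 in WT livers, and Fmo1 one of 0.25 in DKO livers and 0.50 in WT livers. With slide fixed the amplitude of Sult1d1 was 0.22 in DKO livers and 0.49 in WT livers, and that of Fmo1 was 0.27 in DKO livers and 0.39 in WT livers. For neither gene did the difference in rhythm pass (limma adjusted p = 0.800 and 0.965). Fmo4, near the detection limit, peaked at ZT 21.8 in DKO livers and ZT 13.8 in WT livers, and its difference did not pass either (limma adjusted p = 0.513).

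**Figure D5:**
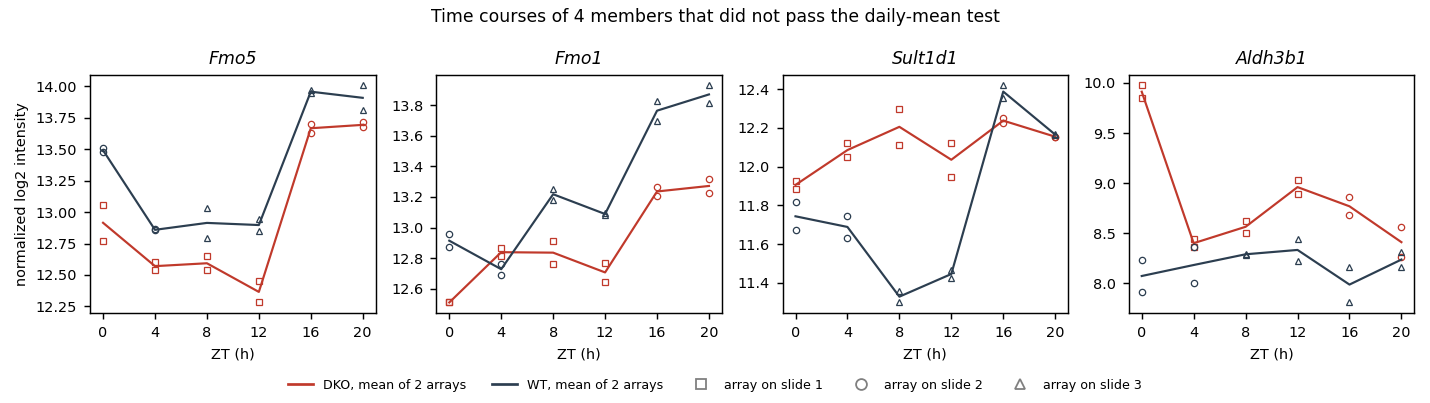
Normalized log2 intensity by time of day (ZT, h) of Fmo5, Fmo1, Sult1d1 and Aldh3b1, with DKO in red, WT in dark blue, lines through means of 2 arrays and symbols by slide. Fmo5 is high at ZT16 and ZT20 in both genotypes, Sult1d1 has its lowest WT values, 11.33 and 11.45, at ZT8 and ZT12, and Aldh3b1 stands at 9.91 in DKO at ZT0.

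Genes that work beside these enzymes were read from lists drawn up with earlier results of these data known. Of 8 tested genes that supply the sugar and sulfate donors, 2 rose, Papss1, which makes the sulfate donor PAPS, by 0.49 (limma adjusted p = 0.0348), and Slc35b3, a carrier of that donor, by 0.63 (0.0254), and 0 fell. With slide fixed they were 0.20 and 0.14, and within slide 2 0.45 and 0.26. The 4 deconjugating enzymes and the 9 other conjugating enzymes gave 0 calls, with medians of 0.22 and -0.11. Of 20 other genes of alcohol and aldehyde metabolism 5 fell and 0 rose. These were Akr1c14, a hydroxysteroid reductase, at -1.11, Akr1c19 at -0.50, Cbr1, a carbonyl reductase, at -0.72, Dhrs4 at -0.71 and Rdh16, a retinol dehydrogenase, at -1.17, and with slide fixed they lay between -0.14 and 0.17. Within slide 2 these 5 were at -0.17, 0.29, 0.10, -0.28 and -0.20. Of 8 other esterases and hydrolases 2 fell, the epoxide hydrolase Ephx2 at -0.72 and the monoglyceride lipase Mgll at -0.98, or 0.13 and -0.16 with slide fixed and -0.16 and -0.27 within slide 2.

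Among 8 receptors and partners that sense xenobiotics, 3 fell and 0 rose. Nr1i3 (the receptor CAR) was at -0.63 (limma adjusted p = 0.0185), Nr1i2 (PXR) at -0.47 (0.04996) and Ppara at -0.81 (0.00905), and with slide fixed they were at -0.45, 0.07 and -0.35, and within slide 2 at -0.25, 0.17 and -0.29. Of 14 target genes of such sensors outside the members, the cytochrome Cyp2c55 rose by 1.91 and the glutathione transferase Gsta2 fell by 1.83, at 2.94 and 1.66 with slide fixed and 1.81 and 0.09 within slide 2. Dbp, 1 of 2 measured PAR bZIP genes, rose by 1.39 (limma adjusted p = 0.0136), by 2.65 with slide fixed and 2.43 within slide 2, and was higher at 4 of 6 times. The other, Tef, differed by -0.03 and did not pass (limma adjusted p = 0.948), at 0.91 with slide fixed and 1.58 within slide 2. Of 3 measured female-biased genes Cyp17a1 rose by 2.89, and of 11 male-biased genes Moxd1 and Obp2a rose and Cyp4a12a fell. The fitted difference was 2.61 for Obp2a, -1.55 for Cyp4a12a and 5.005 for Moxd1, whose size is uncertain because 2 of 12 WT arrays detected it. With slide fixed Cyp17a1, Moxd1, Obp2a and Cyp4a12a were at 4.69, 1.69, 3.09 and -0.09, and within slide 2 at 3.77, 1.63, 1.95 and -0.91.

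Markers of other cells were compared as summed normalized signals on a linear scale. The hepatocyte sum was 308800 to 328900 in DKO livers and 308700 to 319400 in WT livers, but 65.0 to 69.3% of it came from Apoa1, Ttr and Cyp2e1 near the top of the scale, so that it had little room to move. Of its 8 markers 2 passed, Pck1 at -0.57 and Alb at -0.96, the size of which is uncertain with 1 of 12 DKO arrays above detection. With slide fixed Pck1 and Alb were at -0.19 and 0.13, and within slide 2 at 0.32 and -0.45. The macrophage sum (8 of 9 markers measured) was 11670 to 28300 in DKO livers and 8261 to 13480 in WT livers, and the neutrophil and myeloid sum (3 of 9) was 1464 to 26910 in DKO livers and 1254 to 5284 in WT livers. The endothelial sum (9 of 10) was 18780 to 30570 in DKO livers and 20000 to 22250 in WT livers. The DKO ZT0 sample held the highest macrophage, neutrophil and endothelial sums. The stellate and fibroblast sum (6 of 10) was 23970 to 32750 in DKO livers and 22450 to 25740 in WT livers, with 4 of 6 DKO samples above the highest WT value and none of the 6 genes passing. Among these other cells 2 markers rose, Lyve1 by 0.86 and the cholangiocyte marker Sox9, detected on 10 of 12 DKO arrays and 6 of 12 WT arrays, by 1.00, at 1.25 and 0.20 with slide fixed. Their part in the member results was not tested. Without the DKO ZT0 sample 7 members were called lower and 1 higher, with Aldh1a1, Ces1f and Ugt1a2 lost. The same genes were lost without the DKO ZT12 sample.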

How the data were processed

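Gene expression was measured on 24 Illumina arrays of mouse liver RNA, isolated with Trizol and turned into biotin-labelled cRNA by an Ambion MessageAmp kit, per the labels' protocols. GenomeStudio was used, per the submitters' processing notes. The deposited signal is a linear intensity, averaged over the beads of a probe, and the detection p-value deposited beside it sets each probe against negative controls, per the file headers. Bead numbers and bead standard errors were deposited beside them. The authors' processed table also holds intensity, on a linear scale with array medians of 278.76 to 278.97, and neither its normalization method nor a genome build is stated.

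Signals went through limma 3.58.1 (R 4.3.3), by normexp background correction from detection p-values (offset 16), quantile normalization and log2. A probe was kept when both arrays of 2 or more of the 12 groups detected it at 0.01 (10243 probes), and the brightest per symbol gave 7272 genes. The 2 arrays of a group were averaged. A 24 h harmonic with a mean per genotype was fitted to 12 values (6 residual, 3.31 prior degrees of freedom), with Benjamini-Hochberg adjustment over all genes at 0.05. SE values are moderated, at 0.066 to 0.299 over the members. Depth is given by 38.1 to 40.6 beads per probe. The fit was tested on simulated data without slide effects, which cannot show how it behaves where slide and genotype overlap.

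Members and lists were chosen with earlier results of these data known. Every member that passed, and in a family with none the one with the largest difference, is given at each time, and other members by their difference. Beyond that rule, Aldh3b1 and 1 probe of Ugt1a6a are given at each time, chosen after their values were seen. Of other lists, genes that passed are named, at most 4 a list by size, and Akr1c19 and Tef were named beyond that after their values were seen. Replicate numbers do not pair samples, since same-numbered deviations correlated at -0.0532 to 0.0536 over 66 pairs of groups. Alternatives were other background corrections, scalings, filters and probes, the authors' values, slide terms, another variance model, time as a factor, a 1.5-fold minimum and leave-outs. Arrays were also fitted as separate values, with RNA sample as a random block.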

Additional observations from a re-analysis of the deposited data

Results flagged for a closer look

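Among the 80 sets of 6 samples (40 members in 2 genotypes), 2 had a sample that stood apart, by a gap to its nearest neighbour that exceeded the critical share of the range in Dixon's test. Chance alone flags about 1 in 20 such groups, so 2 of 80 is not more than chance gives. For Aldh3b1 the DKO ZT0 sample was at 9.912 (normalized log2 intensity), with the next DKO value at 8.961 and a gap of 0.63 of the range. The same sample held the highest macrophage and myeloid marker sums, and their part in this value was not tested. For Ces2a the WT ZT20 sample was at 6.974, with the next WT value at 6.48 and a gap of 0.776 of the range, in a gene detected on 2 DKO and 3 WT arrays.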

How the results depend on the processing

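Called lower in daily mean were 10 members, and 21 with median scaling, 1 under a random slide block and 0 under a fixed slide block. With the 24 arrays as separate values and RNA sample as a random block the count was 17, with or without a replicate block. Leaving out a time, a sample, an array set or an array gave 2 to 12. Called higher was 1 member, 0 with median scaling or either slide term, 2 without a filter on dim probes or with time as a factor, 3 with 24 arrays with or without a replicate block, and 0 to 1 in the leave-outs. Of all genes 680 were called, 2182 with median scaling, 1290 with 24 arrays without and 1257 with a replicate block, 122 under a random slide block, 0 under a fixed one (793 at an unadjusted p under 0.05), and 141 to 719 in the leave-outs. Median scaling moved the median of all genes to -0.20 and the higher share of calls to 8.52%, against 46.3%. Rhythms called were 0 members in DKO, 2 with 24 arrays and 1 with the replicate block, and 0 in WT, 5 with 24 arrays and 4 with the replicate block, and 0 in each leave-out. The cause of the larger counts with 24 arrays was not tested. Those fits held the RNA sample as a random block, with 1 correlation shared by all genes. Slide as a fixed block changed the sign of Aldh1a1 (0.234, SE 0.446), Aldh3a2 (0.1002, SE 0.224), Ces1e (0.01797, SE 0.477), Ces1g (0.6303, SE 0.481) and Fmo5 (0.4299, SE 0.336). Slide 2 alone changed the sign of Fmo5 (0.5042). In all, the sign changed for 20 of 40 members in the fixed block and for 11 in slide 2. The share over all genes was not counted. Members that did not pass, had a difference over 0.25 in size and changed sign in both were Fmo5, Fmo1 (0.779 in the fixed block, 0.432 within slide 2), Ces2a (0.776, 0.240), Aldh6a1 (0.351, 0.0838) and Ugt2a3 (0.408, 0.146), and those that did so in the fixed block alone were Aldh3b1 (-0.389), Ugt2b1 (0.137) and Ugt3a1 (0.102). The Aldh8a1 probe called by itself reversed under both (0.4448, 0.01851), in fits chosen after seeing the data. All 11 called members kept their sign in all 44 leave-outs. Signal over background limits Ugt1a2, Ces2a and Fmo4, and 26 members were too dim to test.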
